A study of Mus musculus with 8 samples.

Results

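The levels of 10 genes of stratified squamous epithelium were followed through 8 libraries of neonatal mouse brain. The genes were *Krt1*, *Krt4*, *Krt6a*, *Krt10*, *Krt13*, *Krt15*, *Rptn*, *Hrnr*, *Scel* and *Mal*, 10 of 24015 entries in the count table, matched by gene symbol. They were selected on their counts in the 2 wild-type (WT) libraries, being high in 1 of them, so the WT values given here describe that choice and support nothing further. Tests are read only for comparisons that leave the WT libraries out of the contrast. All 10 genes passed the filter on low counts, but *Rptn* and *Krt6a* did so only through WT libraries, and 8 of the 10 passed when WT was left out.

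The study examined how gene expression changes when 1b, a conserved regulatory stretch of *Scn1a*, is deleted. *Scn1a* is the gene of a voltage-gated sodium channel of neurons. The deletion was made with Cas9 in C57BL/6N oocytes and expanded as a single line. All 8 mice were of postnatal day 7 (P7) and on this background, each library came from 1 animal, and the labels name no treatment. The 2 WT mice had no deleted allele and were male. The 4 1b+/- mice had 1 deleted allele, and replicates 1 and 2 were male and replicates 3 and 4 female. The 2 1b-/- mice had 2 deleted alleles and were female. Genotype and sex therefore cannot be told apart between WT and 1b-/-. The sample labels give the tissue as hippocampus and the methods of the study give forebrain, so the region is uncertain.

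Library totals ranged from 2947770 to 20878772 counts, with 12575229 in WT replicate 1 and 6742864 in WT replicate 2. Levels are given as CPM, counts in each 1000000 after scaling for library composition. A gene with 0 counts may have a level of up to 0.145 CPM in the deepest library (1b+/- replicate 3) and 1.0 CPM in the shallowest (1b+/- replicate 4), taking 3 counts as the limit. *Scn1a* stood at 45.1 and 40.5 CPM in WT, 15.7 to 26.7 CPM in 1b+/-, and 3.18 and 2.0 CPM in 1b-/-, which is the order of the labels. Summed over 12 neuronal markers, the level was 6925 to 8764 CPM in every library. Over 12 hippocampal markers it was 486 to 736 CPM, and several of these markers are also present elsewhere in forebrain. Intervals given below are 95% intervals for counting error only, since copies of the same molecule were not separated.

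Stratified epithelia line the skin, mouth and oesophagus and renew from a basal layer outwards. Their cells are filled with keratins, which assemble as pairs of a type I and a type II protein, and the pair changes as cells leave the basal layer: *Krt5* with *Krt14* below, *Krt1* with *Krt10* in the upper layers of skin, *Krt4* with *Krt13* in the upper layers of mouth and oesophagus. In the last step of epidermal differentiation, proteins such as repetin, hornerin and sciellin are cross-linked beneath the cell membrane into the cornified envelope. Brain tissue proper is not known for these keratins. *Mal* is an exception in the group, since it encodes a small membrane proteolipid that is found both in the apical transport of epithelial cells and in the myelin made by oligodendrocytes.

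The 10 genes lie in 5 places in the mouse genome (mm9, GENCODE). The type II keratin genes *Krt1* (chr15:101675859-101681217), *Krt4* (chr15:101748967-101755166) and *Krt6a* (chr15:101520363-101524738) sit in the cluster on chromosome 15. The type I genes *Krt10* (chr11:99246568-99250678), *Krt13* (chr11:99978641-99982880) and *Krt15* (chr11:99993072-99997263) sit in the cluster on chromosome 11, and all 6 keratin genes are on the minus strand. *Rptn* (chr3:93197621-93203364) and *Hrnr* (chr3:93123671-93137492) are neighbours on the plus strand of chromosome 3, in the epidermal differentiation complex. *Scel* (chr14:103912558-104012563, plus strand) and *Mal* (chr2:127458962-127482431, minus strand) stand alone. All 10 are annotated as protein coding. Exons of *Krt10* overlap *Gm11940*, a transcript on the opposite strand, and the use of strand in counting was not stated.

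Because the genes were high together, the 120 bases before their start sites were read from the RefSeq promoter table (GRCm38.p6), which held 6 of the 10 genes, with 2 start sites for *Krt13* and so 7 in all. *Krt1*, *Krt4*, *Krt6a* and *Krt15* had no entry. The windows were searched on both strands for TATAAA, the core of the TATA box, and for TGANTCA, where N is any base. TGANTCA takes in the core sites of the AP-1 family of factors, which have C or G in the middle, and is wider than these. The 2 motifs did not overlap in any of these windows. The 5 windows with a match are shown 5′ to 3′ along the gene, with the matched letters in capitals.
*Krt10*, chr11:99389365-99389484, minus strand: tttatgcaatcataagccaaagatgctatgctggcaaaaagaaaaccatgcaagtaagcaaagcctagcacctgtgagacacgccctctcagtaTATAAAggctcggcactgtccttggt
*Krt13*, chr11:100120578-100120697, minus strand: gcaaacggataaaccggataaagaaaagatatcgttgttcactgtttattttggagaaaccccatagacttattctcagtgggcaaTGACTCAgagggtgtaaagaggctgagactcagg
*Rptn*, chr3:93393579-93393698, plus strand: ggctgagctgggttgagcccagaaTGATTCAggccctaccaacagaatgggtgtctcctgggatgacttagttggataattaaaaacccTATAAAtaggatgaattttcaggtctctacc
*Hrnr*, chr3:93319629-93319748, plus strand: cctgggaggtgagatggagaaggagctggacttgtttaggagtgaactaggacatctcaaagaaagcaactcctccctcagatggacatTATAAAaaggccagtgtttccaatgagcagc
*Scel*, chr14:103513221-103513340, plus strand: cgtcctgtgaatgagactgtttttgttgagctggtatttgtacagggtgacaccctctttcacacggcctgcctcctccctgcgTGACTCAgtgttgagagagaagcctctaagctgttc

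TATAAA was found before 3 of the 7 start sites, beginning at position -26 in *Krt10* and -31 in both *Rptn* and *Hrnr*, counted back from the start site. TGANTCA was also found before 3, at -34 for the *Krt13* site shown, -36 for *Scel* and -96 for *Rptn*. The match in *Rptn* has T in the middle and so is not an AP-1 core site. Among 32851 promoters of the same length in the table, 6.34% held TATAAA, 3.41% held TGANTCA and 0.359% held both, as *Rptn* did. The window of *Mal* and that of the other *Krt13* start site (chr11:100121567-100121686) held neither run of letters. A match describes the sequence and does not show that a factor binds there.

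The summed level of the 10 genes was 490 CPM in WT replicate 1 against 57.9 CPM in WT replicate 2, and the 1b+/- libraries held 27.7, 30.7, 21.8 and 23.4 CPM and the 1b-/- libraries 26.3 and 26.8 CPM. WT replicate 1 thus stood far above every other library, WT replicate 2 stood above the remaining 6 by a smaller margin, and those 6 differed little from each other. WT replicate 1 was 8.45 times WT replicate 2 (7.62 to 9.40), and WT replicate 2 was 2.25 times the other 6 pooled (2.01 to 2.52). In WT replicate 1 the 10 genes took 5922 counts, 0.0471% of the library. In bulk tissue, more cells of a type and more RNA per cell cannot be told apart.

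**Figure D1:**
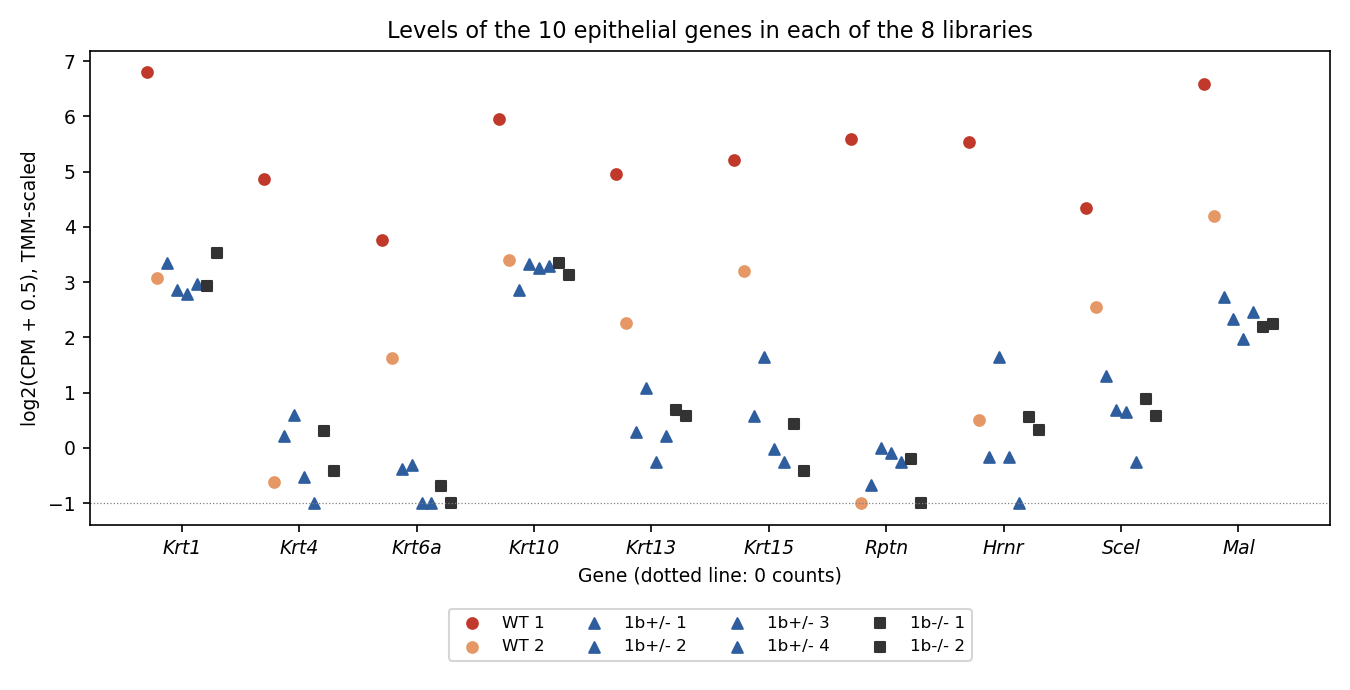
Levels of the 10 epithelial genes, as log2(CPM + 0.5) after composition scaling, in each of the 8 libraries; each point is 1 library and the dotted line marks 0 counts. WT replicate 1 (red) is the highest point for all 10 genes, and WT replicate 2 (orange) is clear of the other 6 for *Krt6a*, *Krt13*, *Krt15*, *Scel* and *Mal* but not for *Krt1*, *Krt4*, *Rptn* or *Hrnr*.

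The epidermal pair was present in every library. *Krt1*, the type II keratin of the upper epidermis, was 111 CPM in WT replicate 1, 7.97 in WT replicate 2, 9.70, 6.77, 6.40 and 7.34 in the 1b+/- libraries and 7.10 and 11.0 in the 1b-/- libraries. *Krt10*, its type I partner, was 61.5 CPM in WT replicate 1, 10.1 in WT replicate 2, 6.73, 9.59, 9.02 and 9.35 in 1b+/- and 9.67 and 8.26 in 1b-/-. For both genes WT replicate 1 was alone, and WT replicate 2 fell inside the range of the other 6 for *Krt1* and just above it for *Krt10*. WT replicate 1 exceeded WT replicate 2 by 13.9-fold for *Krt1* (10.5 to 18.7) and 6.08-fold for *Krt10* (4.72 to 7.95). Against the other 6 pooled, WT replicate 2 was 1.03-fold for *Krt1* (0.759 to 1.38) and 1.18-fold for *Krt10* (0.897 to 1.52), and both intervals include 1.

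Outside the WT libraries the other genes were at or under 2.63 CPM, except *Mal*. *Krt4*, the type II keratin of upper oral and oesophageal layers, was 28.7 CPM in WT replicate 1, 0.153 in WT replicate 2 (1 count), 0.660, 1.01, 0.194 and 0 in 1b+/- and 0.734 and 0.250 in 1b-/-. *Krt13*, its type I partner, was 30.4 CPM in WT replicate 1, 4.29 in WT replicate 2, 0.726, 1.62, 0.339 and 0.668 in 1b+/- and 1.10 and 1.0 in 1b-/-. The partners parted in WT replicate 2, where *Krt13* was above all the other 6 libraries and *Krt4* was above only the 1b+/- library with 0 counts. The ratio of WT replicate 1 to WT replicate 2 was 7.09 for *Krt13* (4.83 to 10.8) and 187 for *Krt4*, where the single count in WT replicate 2 left the interval at 33.4 to 7416.

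*Krt15* is a type I keratin of basal cells, and *Krt6a* is a type II keratin of tongue and hair follicle that skin makes on wounding. *Krt15* was 36.6 CPM in WT replicate 1, 8.73 in WT replicate 2, 0.990, 2.63, 0.485 and 0.334 in 1b+/- and 0.857 and 0.250 in 1b-/-. *Krt6a* was 13.1 CPM in WT replicate 1, 2.61 in WT replicate 2, 0.264, 0.303, 0 and 0 in 1b+/- and 0.122 and 0 in 1b-/-. Both WT libraries were above all of the other 6 for each gene, and the step from WT replicate 2 to WT replicate 1 was 4.19-fold for *Krt15* (3.18 to 5.63) and 5.01-fold for *Krt6a* (3.03 to 8.83). WT replicate 2 was in turn 8.86 times the other 6 pooled for *Krt15* (6.05 to 12.9) and 19.8 times for *Krt6a* (8.10 to 53.0). Of the distinct 50-base words in the *Krt6a* transcripts, 47.9% also occurred in other genes, most often *Krt6b*, *Krt5* and *Gm5414*, so its count depends on how reads with several matches were handled, which was not stated. *Krt6b* itself had 6 counts in WT replicate 1, 1 in WT replicate 2 and 0 to 3 elsewhere.

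The cornified envelope genes split in a similar way. *Rptn*, encoding repetin, was 47.7 CPM in WT replicate 1 (577 counts), 0 in WT replicate 2, 0.132, 0.505, 0.436 and 0.334 in 1b+/- and 0.367 and 0 in 1b-/-. *Hrnr*, encoding hornerin, was 45.9 CPM in WT replicate 1, 0.919 in WT replicate 2, 0.396, 2.63, 0.388 and 0 in 1b+/- and 0.979 and 0.751 in 1b-/-. In WT replicate 2, *Rptn* had no count and *Hrnr* lay within the range of the other 6. *Rptn* was at least 104-fold higher in WT replicate 1 than in WT replicate 2, taking 3 counts as the limit in the latter, and *Hrnr* was 49.9-fold higher (22.8 to 137). *Scel*, encoding sciellin, was 19.8 CPM in WT replicate 1, 5.36 in WT replicate 2, 1.98, 1.11, 1.07 and 0.334 in 1b+/- and 1.35 and 1.0 in 1b-/-. It had the smallest step of the 10 genes between the WT libraries, 3.70-fold (2.59 to 5.44), and WT replicate 2 was above all of the other 6.

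*Mal* was 95.2 CPM in WT replicate 1, 17.8 in WT replicate 2, 6.14, 4.54, 3.44 and 5.01 in 1b+/- and 4.04 and 4.26 in 1b-/-. Unlike *Krt6a*, *Krt13*, *Krt15* and *Scel*, it held a level of several CPM in every animal, in 15 counts or more. WT replicate 1 was 5.35 times WT replicate 2 (4.42 to 6.54), and WT replicate 2 was 3.95 times the other 6 pooled (3.15 to 4.92).

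**Figure D2:**
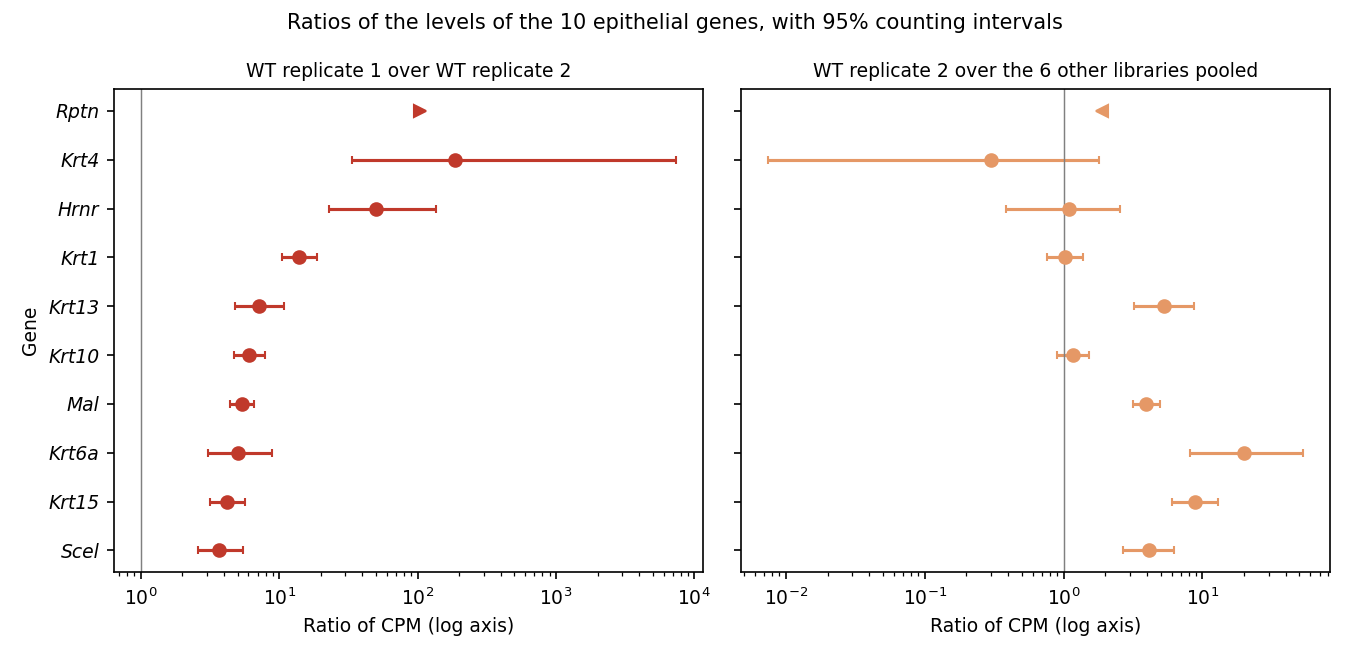
Ratios of CPM on log axes with 95% counting intervals, for WT replicate 1 over WT replicate 2 (left) and WT replicate 2 over the 6 libraries of 1b+/- and 1b-/- pooled (right); triangles mark *Rptn*, a lower bound on the left and an upper limit of 1.89 on the right. On the right, *Krt6a*, *Krt15*, *Krt13*, *Scel* and *Mal* lie between 3.95 and 19.8, while the intervals of *Krt1*, *Krt10*, *Hrnr* and *Krt4* hold 1.

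The 10 genes therefore fell into a pair of patterns in WT replicate 2. After the median of the other 6 libraries was subtracted, the excess in WT replicate 2 was 22.8% of that in WT replicate 1 for *Scel*, 22.4% for *Krt15*, 19.6% for *Krt6a*, 14.7% for *Mal* and 11.6% for *Krt13*. For *Krt10*, *Hrnr* and *Krt1* it was 1.78%, 0.763% and 0.721%, and *Krt4* and *Rptn* were below that median in WT replicate 2. The 5 genes with little or no excess in WT replicate 2 were thus *Krt1*, *Krt10*, *Rptn* and *Hrnr* of cornifying epidermis and the oral keratin gene *Krt4*. *Scel*, also a cornified envelope gene, went the other way, with the largest relative excess of the 10.

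The make-up of the summed counts differed accordingly. *Krt1* supplied 22.6% of the 5922 counts in WT replicate 1 (21.6 to 23.7), 13.8% of the 378 counts in WT replicate 2 (10.4 to 17.6) and 30.0% of the 1565 counts in the other 6 libraries (27.8 to 32.4). *Mal* supplied 19.4%, 30.7% and 17.5%, and *Krt15* supplied 7.48%, 15.1% and 3.83%. *Krt1* and *Krt10* together led in the other 6 libraries, where *Krt10* alone was 33.4%, against 12.6% in WT replicate 1. *Rptn* and *Hrnr* supplied 9.74% and 9.37% of the counts in WT replicate 1 and 0% and 1.59% in WT replicate 2, where a share of 0 of 378 allows up to 0.971%. The intervals of the shares in the 2 WT libraries overlapped for *Krt6a* and *Krt13* and not for the other 8 genes.

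**Figure D3:**
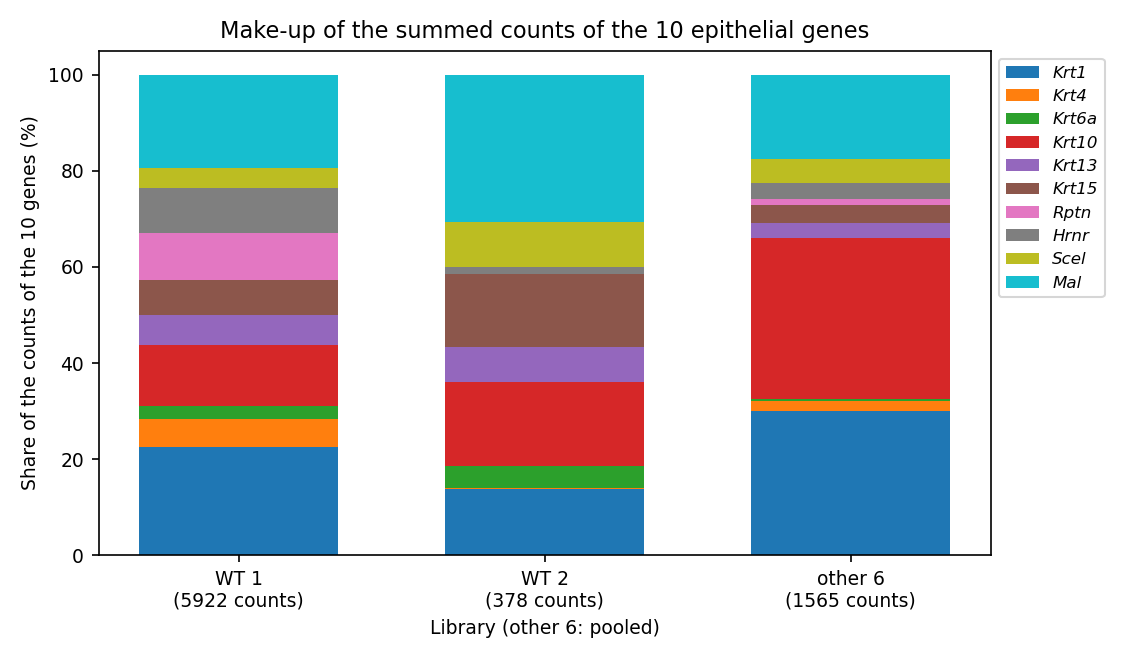
Share of the summed counts of the 10 epithelial genes that each gene supplied, in percent, in WT replicate 1, in WT replicate 2 and in the 6 other libraries pooled; total counts stand under each bar. *Rptn* (pink), *Hrnr* (grey) and *Krt4* (orange) are visible in WT replicate 1 and nearly absent from WT replicate 2, and *Krt1* and *Krt10* (blue and red) make up most of the third bar.

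Ratios of 2 genes within a library need no scaling between libraries. *Krt1* over *Krt10* was 1.80 in counts in WT replicate 1 (1.64 to 1.97), 0.788 in WT replicate 2 (0.537 to 1.15) and 0.899 in the other 6 pooled (0.792 to 1.02), where single libraries ranged from 0.705 to 1.44. *Krt4* over *Krt13* was 0.943 in WT replicate 1 (0.812 to 1.09) and 0.0357 in WT replicate 2 (0.000873 to 0.216). *Krt6a* over *Krt15* was much alike in both WT libraries, 0.357 (0.296 to 0.429) and 0.298 (0.163 to 0.520). *Rptn* over *Hrnr* was 1.04 in WT replicate 1 (0.924 to 1.17) and 0.392 in the other 6 pooled (0.221 to 0.669).

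Between genes, levels were compared per kilobase of exon. In WT replicate 1, *Krt1* led with 45.3 CPM per kb, followed by *Mal* with 34.3, *Krt10* with 29.4, *Krt15* with 20.5, *Krt13* with 16.7, *Krt4* with 13.5 and *Rptn* with 11.5, and *Scel*, *Krt6a* and *Hrnr* were lowest with 6.37, 5.79 and 4.10. Neighbours in this order were apart by more than counting error except *Krt4* and *Rptn*, and *Scel* and *Krt6a*, whose intervals overlapped. The place of *Hrnr* is uncertain, since 69.1% of the 50-base stretches of its longest transcript recur within that transcript. In WT replicate 2 the order was *Mal* (6.40 CPM per kb), *Krt15* (4.89), *Krt10* (4.83), *Krt1* (3.26), *Krt13* (2.36), *Scel* (1.72) and *Krt6a* (1.15), then *Hrnr* (0.0821), *Krt4* (0.0719) and *Rptn* (0). There the intervals of all neighbours in the order overlapped except those of *Krt6a* and *Hrnr*, and *Mal* overlapped *Krt10* as well as *Krt15*.

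The keratin pair *Krt5* and *Krt14* of the basal layer was low in WT replicate 1 beside *Krt1* and *Krt10*, but *Krt15*, also of basal cells, was not. *Krt15* was 20.5 CPM per kb there, above *Krt13* with 16.7 and *Krt4* with 13.5. In WT replicate 1, *Krt5* was 2.83 CPM per kb and *Krt14* was 1.60 CPM per kb, against 45.3 and 29.4 for *Krt1* and *Krt10*. As CPM, *Krt5* was 6.20 in WT replicate 1, 1.07 in WT replicate 2 and up to 1.47 elsewhere, and *Krt14* was 2.81, 0.153 and up to 0.606. Among 16 other keratin genes that passed the filter, *Krt5* and *Krt14* were the 2 that were at least 4-fold higher in WT replicate 1 than in WT replicate 2. *Krt14* passed only through WT replicate 1. *Krt16* and *Krt17* had 5 and 6 counts in WT replicate 1 and did not pass.

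Against all genes tested, these levels were unusual in the way that the choice of genes fixes. WT replicate 1 was the highest library for 10 of the 10 genes and for 12.9% of the 15588 genes tested. With 0.5 CPM added to each value, 9 of the 10 were at least 4-fold higher in WT replicate 1 than in WT replicate 2, against 0.34% of all genes tested. *Krt15* was just inside this limit with 4.02 and *Scel* just outside with 3.47. Both WT libraries were above all of the other 6 for 6 of the 10, against 3.08% of all genes tested. *Rptn*, *Krt4* and *Hrnr* had the 3 largest ratios of all 15588 genes, and the median log2 ratio over all genes was 0.0021.

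**Figure D4:**
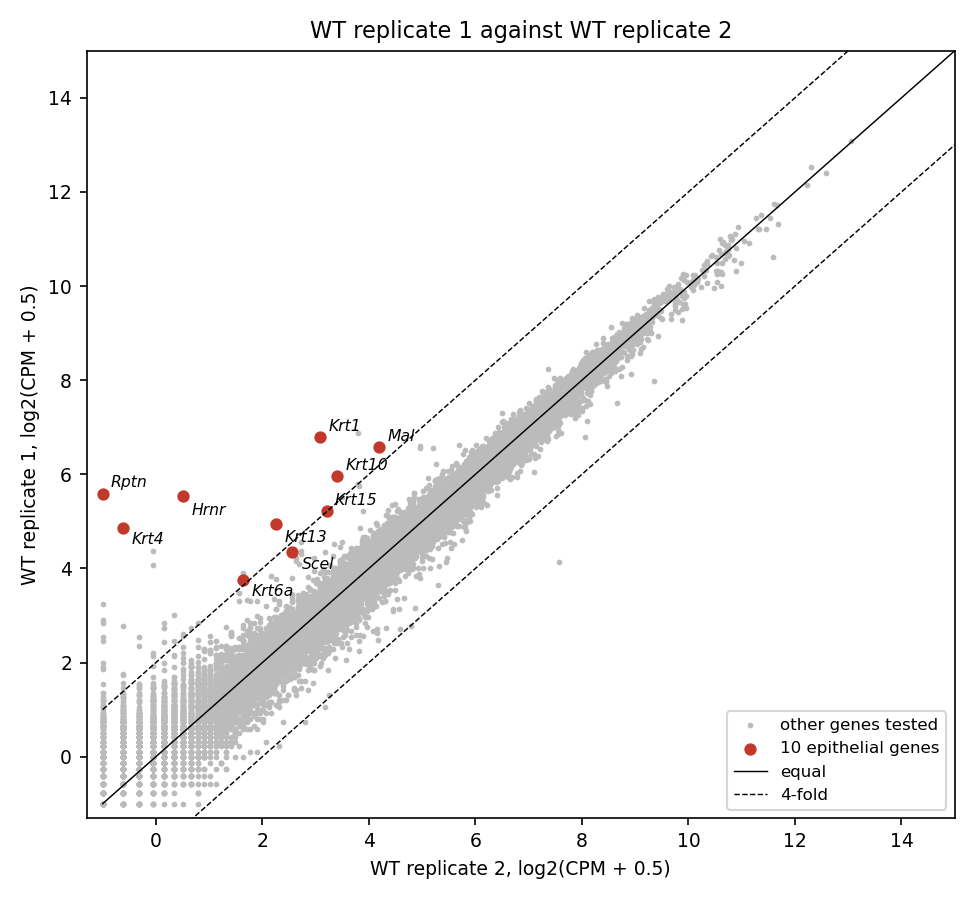
WT replicate 1 against WT replicate 2 for the 15588 genes tested, each axis as log2(CPM + 0.5), with lines of equality (solid) and 4-fold difference (dashed). The 10 epithelial genes (red) lie above the line of equality, 9 of them beyond 4-fold, while most genes lie near equality and 53 in all lie beyond 4-fold on this side.

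Calls in the genotype comparisons against WT reuse the values on which the genes were selected, so nothing is read from them beyond their dependence on the 2 WT libraries. In edgeR's fit, 5 of the 10 genes (*Krt6a*, *Krt13*, *Krt15*, *Scel* and *Mal*) were in the list called lower in 1b+/-, which held 0.0834% of all genes. Without WT replicate 1, 0 of the 9 that could then be fitted were in that list, and without WT replicate 2 all 10 were. With sex as a covariate the list held 0 of all 15588 genes tested. The fitted log2 difference from WT was then -3.40 for *Mal* (-3.59 without the covariate), -3.01 for *Scel* (-3.32) and -4.78 for *Krt6a* (-5.65). No gene of the 10 was in the list without 1b+/- replicate 3, when it held 0 genes in all. Nor was any without 1b+/- replicate 4, when it held 4 genes. For 1b-/- against WT, edgeR called 0.00642% of all genes lower, and 0 of the 10 were among them. The list of DESeq2 held 4 of the 10 among 11 genes, and that of the likelihood ratio test 5 among 19. Leaving out WT replicate 1 took the fitted log2 difference from -2.77 to 0.15 for *Krt1* and from -3.79 to -2.10 for *Mal*.

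In the contrasts without WT, none of the 10 genes passed the test. Between 1b-/- and 1b+/-, *Scn1a* was the 1 gene of 15588 called (0.00642%), with a log2 difference of 1b-/- from 1b+/- of -3.07 (SE 0.30; adjusted p by edgeR 0.00491), and that call was lost without either 1b-/- library. Of the 10 epithelial genes, 0 were called by edgeR, by its likelihood ratio test or by DESeq2, and 0 had an unadjusted p under 0.05. The log2 difference of 1b-/- from 1b+/- was 0.22 for *Krt1* (SE 0.75) and 0.08 for *Krt10* (SE 0.54), each with an edgeR adjusted p of 1.0, and it ranged from -0.82 for *Krt15* to 0.43 for *Krt13*. Behind these, mean *Krt1* was 9.06 ± 2.77 CPM (SD) over the 2 1b-/- libraries against 7.55 ± 1.48 CPM over the 4 1b+/- libraries, and mean *Krt10* was 8.97 ± 1.0 against 8.67 ± 1.32 CPM. The SE in this fit draws on the spread between the WT libraries. Fitted on the 1b+/- and 1b-/- libraries alone, where *Krt6a* and *Rptn* did not pass the filter, the differences were 0.23 for *Krt1* (SE 0.28), 0.07 for *Krt10* (SE 0.24) and -0.20 for *Mal* (SE 0.33), against SEs of 0.63 to 1.07 for the 5 genes with fewer counts.

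Sex was compared where both sexes were present, within 1b+/-. Between the 2 females and the 2 males, 5 of 15588 genes were called by edgeR (0.0321%), and 0 of the 10 epithelial genes were among them, nor among those called by DESeq2 or the likelihood ratio test. At an unadjusted p under 0.05, edgeR's fit held 0 of the 10 and 415 of the 15588 genes tested. The likelihood ratio test held 2 of the 10 and 590 of all genes, and DESeq2 held 2 and 280. With the 1b+/- libraries alone, edgeR's fit held 1 of the 8 genes that could be tested and 327 of 15195 in all. With no filter it held 5 of the 10 and 743 of 22443 in all. In each of these 0 of the 10 were called. *Krt15* was 0.485 and 0.334 CPM in the females and 0.990 and 2.63 CPM in the males, with 1 count in 1b+/- replicate 4. Its log2 difference of females from males was -1.89 (SE 0.92, edgeR adjusted p 1.0). Over the 10 genes the difference ranged from -4.54 (SE 2.13) for *Krt6a*, with 0 counts in both females, to 0.53 (SE 2.40) for *Rptn*. In *Krt10* it was 0.17 (SE 0.63).

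Markers of other tissues were read in the same way, since tissue next to the brain could be in a sample. Of 21 genes of epidermis and cornified envelope that passed the filter, 20 were highest in WT replicate 1. At least 4-fold higher there than in WT replicate 2 were 10. The filter asks for 1 CPM in any library, so genes that reach it only in WT replicate 1 must be highest there. Among the genes named next, this held for *Calml3*, *Asprv1*, *Krtdap*, *Ivl*, *Sprr3* and *Serpinb3a*. Such genes are also more likely to be at least 4-fold above WT replicate 2. Counts of genes highest or at least 4-fold higher in WT replicate 1, in this list and those below, therefore support nothing further. The summed levels take in every listed gene found among the counts. The list summed to 97.4 CPM in WT replicate 1, 16.7 in WT replicate 2 and 12.7 to 24.9 in the other 6. *Dmkn*, encoding dermokine, was 14.5 against 2.61 CPM. *Calml3*, a calmodulin-like gene of epithelia, was 9.01 against 0 CPM, *Asprv1*, encoding a protease of the granular layer, was 6.20 against 0.613 CPM, and *Krtdap*, a gene of keratinocyte differentiation, was 4.96 against 0 CPM. The cornified envelope genes *Lor* and *Ivl*, encoding loricrin and involucrin, were 3.89 against 1.23 and 3.14 against 0 CPM. Of the 31 listed genes in the table, 4 had 0 counts in WT replicate 1 (*Sprr2a1*, *Sprr2d*, *Sprr4* and *Tchhl1*). *Sbsn*, encoding suprabasin, was 9.51 against 2.76 CPM, and *Sprr1a*, a cornified envelope precursor, was 6.70 against 0.613 CPM but reached 5.15 CPM in the other 6. Of the 12 oral and oesophageal genes that passed, 8 were highest in WT replicate 1, and *Sprr3* and *Serpinb3a* were 6.95 and 6.70 CPM there and 0 in WT replicate 2. *Emp1* was 93.7 against 30.6 CPM, while *Tgm2* and *Cstb* did not follow, with 14.6 against 17.3 and 10.3 against 7.20 CPM.

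Most genes shared by many epithelia were also highest in WT replicate 1, but some were not. Of 29 genes of basal cells, desmosomes and epithelial regulation, 22 were highest in WT replicate 1, and 4 were at least 4-fold higher there than in WT replicate 2, among them *Dsc1*, a desmosomal cadherin of upper epidermis, with 7.52 against 0.766 CPM. *Dsp*, encoding the desmosome protein desmoplakin, was 36.5 against 14.3 CPM, but it is also among the hippocampal markers used above. *Jup*, which brain also expresses, was 49.0 against 48.7 CPM. *Klf5* was 28.6 against 27.6 CPM, and *Cdh1* was 21.5 against 27.4 CPM and up to 33.7 CPM in the other 6. The list summed to 267 CPM in WT replicate 1, 172 in WT replicate 2 and 115 to 165 in the other 6. Genes of simple epithelium and mesothelium were mostly raised in both WT libraries, like *Krt15* and *Scel*. All 5 simple epithelial keratin genes that passed were above the other 6 libraries in both WT libraries, with summed levels of 70.5, 26.8 and 1.94 to 7.26 CPM, and *Krt8*, *Krt19*, *Krt7* and *Krt18* were 19.3, 18.3, 18.1 and 13.1 CPM in WT replicate 1. The list of mesothelium and urothelium summed to 48.9 CPM in WT replicate 1, 17.3 in WT replicate 2 and 0.668 to 4.65 in the other 6, led by *Upk1b* and *Msln* with 17.3 and 13.1 CPM in WT replicate 1.

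**Figure D5:**
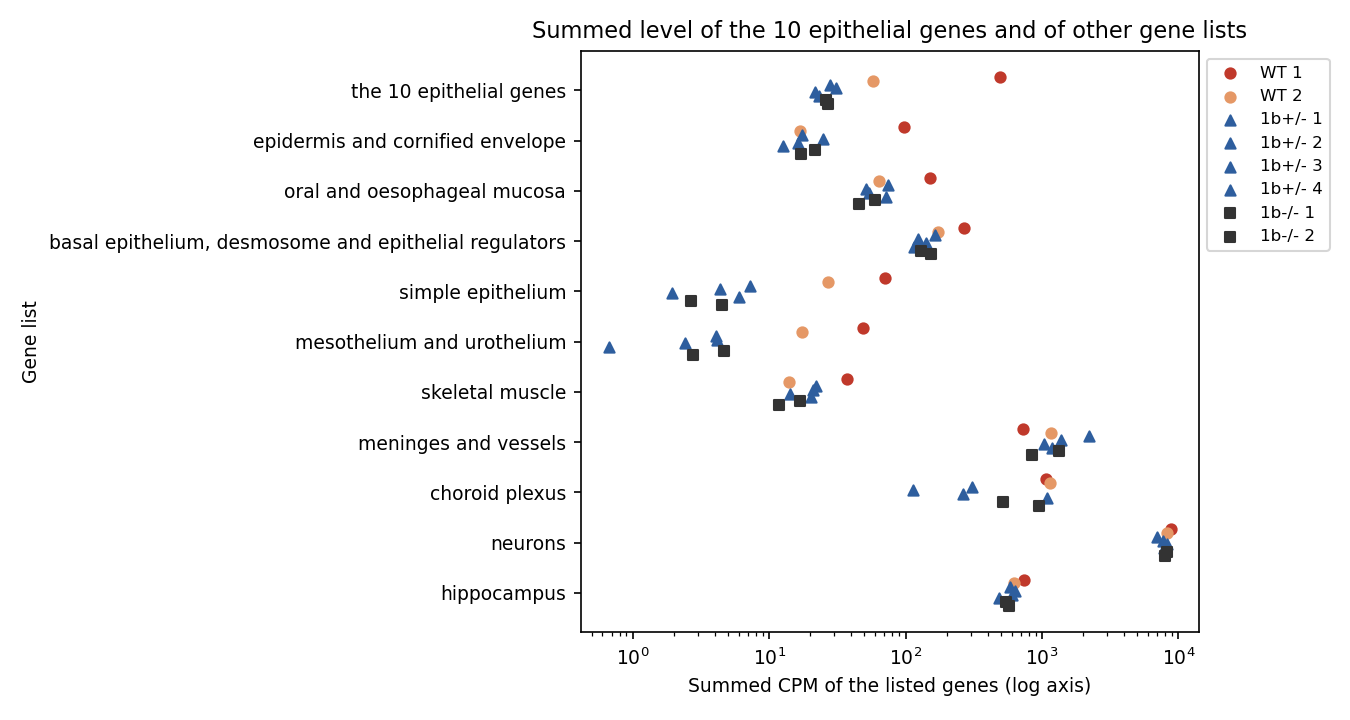
Summed CPM, on a log axis, of the 10 epithelial genes and of 10 other gene lists in each library; each point is 1 library. Both WT libraries stand to the right of the other 6 for the 10 genes, simple epithelium, mesothelium and urothelium and, narrowly, basal epithelium, WT replicate 1 stands alone for the epidermal and oral lists, and it is the lowest of the 8 for meninges and vessels.

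Lists of non-epithelial tissue did not all move with WT replicate 1. Skeletal muscle summed to 37.4 CPM in WT replicate 1, 14.1 in WT replicate 2 and 11.8 to 21.9 in the other 6, with *Myh3* and *Myh8*, myosins of developing muscle, at 13.9 against 3.98 and 5.62 against 0.919 CPM. *Ppbp*, a platelet chemokine gene, stood at 45.1 CPM in WT replicate 1, 10.7 CPM in WT replicate 2 and at most 1.21 CPM elsewhere, whereas *Pf4*, another platelet gene, was 0.992 and 1.53 CPM and within the range of the others. Of the 3 melanocyte genes that passed, 0 were highest in WT replicate 1, although the list summed to 9.10 CPM there, 2.30 in WT replicate 2 and 2.57 to 8.28 in the other 6, nor were any of the 7 genes of bone, cartilage and tooth or the 4 of olfactory and respiratory epithelium. Meninges and vessels summed to 721 CPM in WT replicate 1, below the 845 to 2208 CPM of the other 7 libraries. Choroid plexus did not separate the WT libraries from each other, with *Ttr* at 884 and 938 CPM and between 6.77 and 886 CPM elsewhere. The part of skin, mouth or other tissue in the levels of the 10 genes was not tested.

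Over the 8 libraries, each of the 10 genes followed the mean of the other 9, with Pearson's r on log2(CPM + 0.5) between 0.904 (*Rptn*) and 0.970 (*Krt13*). All of these share WT replicate 1 as their highest point. Over the 6 libraries other than WT, r ranged from -0.198 for *Krt1* and -0.0327 for *Krt10* to 0.955 for *Krt4*. *Mal* and *Rptn* were also near 0 there, with 0.0967 and 0.141. The 10 other genes whose levels were most like the mean of the set were *Idi2* (r = 0.987), *Kera* (0.978), *Itgb6* (0.970), *Prrg4* (0.967), *Ly6d* (0.960), *Asprv1* (0.958), *Csta1* (0.958), *Dsc1* (0.955), *Krtdap* (0.955) and *Klk7* (0.954). *Idi2*, encoding an isopentenyl diphosphate isomerase, was 20.2 CPM in WT replicate 1, 0.460 in WT replicate 2 and at most 0.606 elsewhere. *Ly6d* was 1.90 CPM in WT replicate 1 and had 0 counts in the other 7 libraries. Of the 53 genes at least 4-fold higher in WT replicate 1 than in WT replicate 2, 9 belonged to the 10 genes, 17 to the epithelial lists and 24 to no list. The lists were chosen with earlier results known and the filter favours such genes, so this split supports nothing further.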

How the data were processed

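Brain RNA of 8 P7 mice was sequenced by the authors from stranded poly(A) libraries as single 50-base reads (HiSeq), aligned to mm9 with STAR 2.7.2 and summarised over genes with featureCounts. The annotation, the strand setting and the handling of reads that match several places are not given in the sources used here, which matters for *Krt6a*, *Hrnr* and *Krt10*. The deposited values are raw counts per gene symbol, 1 column per animal; 1572 of 24015 entries had no count.

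Groups and sex came from the labels, and replicate numbers follow sample order. Nothing beyond the labels shows that the animals came from separate litters, so p-values measure the spread between these animals. The 15588 genes that reached 1 CPM in any library were tested with edgeR 4.0.16 (quasi-likelihood, TMM scaling, genotype as the only factor, all 8 libraries in a shared fit) in R 4.3.3, with Benjamini-Hochberg adjustment over all genes at 0.05. Sex was tested with 1b+/- divided by sex. CPM values are TMM-scaled. Ratios of CPM carry exact conditional binomial intervals, shares Clopper-Pearson intervals and levels exact Poisson intervals, at 95%. A floor of 3 counts stood in for 0, and 0.5 CPM was added before logs and 4-fold limits. Log2 fold changes are those fitted by edgeR.

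The 10 genes, the other gene lists and the comparisons were chosen with earlier results of these data known. Named besides the 10 were *Scn1a*, *Ttr*, keratin partners (*Krt5*, *Krt14*, *Krt6b*, *Krt16*, *Krt17*), in each list up to 4 genes with the highest CPM in WT replicate 1 and any at least 4-fold above WT replicate 2 (up to 6), the 10 genes most correlated with the mean of the set, and the 10 with the largest ratio between the WT libraries in each direction. *Lor*, *Ivl*, *Pf4*, *Cdh1*, *Gm5414*, *Gm11940* and genes given at 0 counts are named outside that rule. As alternatives, the filter was replaced by filterByExpr or dropped, and scaling by RLE, upper quartile or library totals. Further ones were the likelihood ratio test, DESeq2 1.42.0, sex as a covariate, only the compared groups, other pseudocounts, and omission of each library or gene.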

Additional observations from a re-analysis of the deposited data

Results flagged for a closer look

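*Hrnr* in 1b+/- replicate 2 stood apart from the other 3 libraries of its group. Its level of 2.63 CPM (26 counts) compares with 0.396, 0.388 and 0 CPM, and the gap to the next library was 0.849 of the whole range of the group, above the 95% limit of Dixon's gap test for 4 samples. Of 11 measures examined in this group (the 10 genes and their sum) 1 passed this limit, and 0.55 would by chance. The same library was also the highest of the 4 in *Krt4* (10 counts), *Krt13* (1.62 CPM) and *Krt15* (2.63 CPM), and it remained far below WT replicate 1 in all of these. In the shallowest library of the group, 1b+/- replicate 4, 0 counts allow a level of up to 1.0 CPM.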

How the results depend on the processing

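No paired analysis was possible because the replicate numbers follow the order of the samples and pair no animals. Between 1b-/- and 1b+/-, and between females and males, 0 of the 10 genes were called under every alternative run, where 8 to 10 of them could be tested. Calls against WT moved. For 1b+/- against WT (5 of 10), 10 were called with no filter and with the likelihood ratio test and 0 with sex as a covariate; leaving out single libraries gave 0 to 10, with 0 without WT replicate 1, 1b+/- replicate 3 or 1b+/- replicate 4, 2 without 1b+/- replicate 1 and 10 without WT replicate 2. For 1b-/- against WT (0 of 10), no filter gave 10, DESeq2 4, the likelihood ratio test 5, a fit of only the compared groups 2, and leaving out single libraries 0 to 9, with 9 without WT replicate 2. Over all genes, leaving out single libraries gave 0 to 1 calls for 1b-/- against 1b+/- (0 without either 1b-/- library) and 5 to 46 for females against males (46 without 1b+/- replicate 2), where no filter gave 85, DESeq2 14 and the likelihood ratio test 20. The cause of these changes was not tested, and fits that leave 1 animal in a group assume that it varies like the others. The ratio of summed levels between the WT libraries (8.45) was 7.59 without *Krt1* and 9.83 without *Mal*, and differed by less than its interval under 3 other scalings. The share of genes at least 4-fold higher in WT replicate 1 (0.34%) was 2.01% with 0.1 CPM added, 0.0834% with 2 CPM added and 0.194% with filterByExpr, and the share with both WT libraries above the other 6 (3.08%) was 1.66% with library totals. Log2 differences of 1b-/- from 1b+/- near 0 changed sign: *Krt1* ranged from -0.095 (without 1b-/- replicate 2) to 0.54 over omissions, and *Krt10* was -0.015 with sex as a covariate and ranged from -0.055 (without 1b-/- replicate 1; -0.038 without 1b+/- replicate 1) to 0.17. The difference of females from males in *Krt15* ranged from -2.48 to -1.08 over omissions. Depth limited the genes with few counts most: in 1b+/- replicate 4, 3 of the 10 genes had 0 counts.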

Other observations

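Outside epithelial genes, the largest differences between the WT libraries ran in both directions. *Pou4f1*, a transcription factor gene of sensory and habenular neurons, was 16.2 CPM in WT replicate 1 and 0.460 CPM in WT replicate 2, and it ranged from 0.334 to 22.5 CPM in the other 6 libraries. *Tcf7l2*, a transcription factor gene prominent in thalamus, was 118 against 13.3 CPM, with 8.68 to 66.3 CPM in the other 6. For these 2 genes the range over the other 6 libraries was wide, unlike *Spink5*, *Calm4* and *Dsg1a*, epithelial genes that were 5.29, 6.37 and 3.47 CPM in WT replicate 1, 0, 0.153 and 0 CPM in WT replicate 2 and at most 0.612 CPM elsewhere.

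In the opposite direction, 5 genes were at least 4-fold higher in WT replicate 2 than in WT replicate 1 (0.0321% of those tested), and 0 of the 10 epithelial genes were among them. *Ptgds*, encoding a prostaglandin D synthase of meninges and glia, was 17.1 CPM in WT replicate 1 and 189 CPM in WT replicate 2, and 26.9 to 222 CPM in the other 6, so that WT replicate 1 was the lowest of the 8. *Fmod*, *Gjb2* and *Slc6a20a* were likewise lower in WT replicate 1 (6.37, 6.04 and 1.98 CPM) than in any other library, with 27.3, 23.6 and 9.04 CPM in WT replicate 2. The remaining genes of the 10 with the largest ratio in this direction were *Fezf1*, *Serpind1*, *Sim1*, *Sult5a1*, *Mrgprf* and *Prok2*, between 1.23 and 8.58 CPM in WT replicate 2.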
